A study of Arabidopsis thaliana with 6 samples.

Results

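C-terminally encoded peptides (CEPs) are small secreted hormones, and 8 genes of their signalling route were followed here in roots of Arabidopsis thaliana: the peptide genes CEP1 (AT1G47485), CEP3 (AT2G23440), CEP5 (AT5G66815) and CEP9 (AT3G50610), the receptor genes CEPR1 (AT5G49660, named XIP1 in the reference) and CEPR2 (AT1G72180), and the glutaredoxin genes CEPD1 (AT1G06830) and CEPD2 (AT2G47880). They were chosen by gene ID from the 29613 IDs counted. The list was drawn up with CEP5 already known to stand higher in the overexpressing line, so the difference between genotypes is given for the 8 genes as a description without a test. Of the 8, 4 had enough counts to be tested (CEP5, CEPR1, CEPR2 and CEPD1), 2 had few counts (CEP3 and CEP9) and 2 had 0 counts in every library (CEP1 and CEPD2). The names used here come from the list itself. The reference annotation describes CEP1 as a carboxy-terminally encoded peptide protein, CEPR1 and CEPR2 as leucine-rich repeat kinases, CEPD1 and CEPD2 as glutaredoxin family proteins, CEP3 and CEP5 as uncharacterized proteins and CEP9 as an RNA polymerase subunit-like protein.

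CEP transcripts are known to accumulate in roots that meet low nitrate. The secreted peptides move up in the xylem to the shoot, where the leucine-rich repeat receptor kinases CEPR1 and CEPR2 perceive them. The shoot phloem then makes the CEP downstream polypeptides CEPD1 and CEPD2, which travel down to the root and raise the nitrate transporter gene NRT2.1 there. CEP peptides also restrain root growth and lateral root formation.

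Whole roots of wild type accession Col-0 and of a line labelled 35S:NPC48 were profiled by polyA RNA-seq, with 3 libraries of each. The 35S promoter of cauliflower mosaic virus is active in most plant cells, and NPC48 is known as a non-protein-coding RNA. All plants received no further treatment and grew on a diluted Murashige and Skoog medium with 500 µM phosphate under 16 h of light, at 24 °C by day and 21 °C by night, to growth stage Boyes 1.0. The labels do not say how many transgenic lines were used, whether plants were pooled or whether the replicates were grown separately, so a p-value here reflects how far these libraries vary, and that variation may be technical.

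Total counts ran from 20120659 to 23830604 in 5 libraries and were 9479418 in 35S:NPC48 replicate 1, where 1 read amounted to 0.107 CPM against 0.0421 to 0.0502 CPM elsewhere. CPM is a gene's read count after all libraries are scaled to the same total. Replicate 2 of both genotypes stood apart. The summed level of 9 phosphate starvation genes in replicate 2 was 5234 CPM (wild type) and 4630 CPM (35S:NPC48), and 436 to 678 CPM in the other 4 libraries, although the labels give the same phosphate supply to all. A list of 10 shoot and chloroplast genes summed to 138 CPM in wild type replicate 3 and 153 CPM in 35S:NPC48 replicate 1, and to 47.3 to 79.7 CPM in the other 4. The targeted NPC48 itself was not analysed here.

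CEP5, listed with its rise already known, stood about 3-fold higher in 35S:NPC48. Its level in replicates 1, 2 and 3 was 1.60, 0.996 and 2.53 CPM for the wild type. The same replicates of 35S:NPC48 gave 4.37, 3.41 and 7.51 CPM. The lowest library of 35S:NPC48 was above the highest of wild type. The means were 1.71 ± 0.771 and 5.10 ± 2.14 CPM (SD, n = 3 each), a log2 difference of 1.57 ± 0.44 (SE). With the replicate number as a block it was 1.59 ± 0.22. CEP5 passed in that blocked fit, which was known when the list was drawn up and so is no test, and it did not pass there without replicate 2 of both genotypes. Within replicate numbers 1, 2 and 3 the ratio of 35S:NPC48 to wild type was 2.73, 3.43 and 2.97. Of all tested genes, 17% were higher in 35S:NPC48 in each of the 3 numbers.

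These values rest on 36, 21 and 60 reads of CEP5 in wild type and 41, 68 and 150 in 35S:NPC48. Without the block, 0.0102% of the 19608 tested genes passed an adjusted p of 0.05 in edgeR, and CEP5 was not among them. With the block 1.21% passed, 0.841% as higher in 35S:NPC48. A level above all wild type libraries in all 3 libraries of 35S:NPC48 was found in 3.94% of tested genes. In bulk roots, more CEP5 RNA per cell and more cells that express it cannot be told apart.

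The other peptide genes were at or near the limit of detection. CEP9 had 6, 17 and 10 reads in wild type and 1, 9 and 5 in 35S:NPC48. These are levels of 0.267, 0.806 and 0.421 CPM and of 0.107, 0.452 and 0.250 CPM. In each replicate number the wild type library was the higher one, but the ranges of the groups overlap. Pooled over the 3 libraries, CEP9 stood at 0.490 CPM in wild type (exact 95% Poisson interval 0.338 to 0.689) and 0.304 CPM in 35S:NPC48 (0.170 to 0.502). The intervals overlap, which is no test of the difference. Such intervals cover counting error only.

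CEP3 had 1, 0 and 4 reads in wild type and 0 in all 3 libraries of 35S:NPC48. The wild type reads amount to 0.0743 CPM pooled (exact 95% Poisson interval 0.0241 to 0.173). For the count of 0 in 35S:NPC48 the same kind of interval reaches up to 0.0748 CPM over the group. CEP1, the peptide first described as a brake on root growth, had 0 reads in all 6 libraries. The exact 95% Poisson interval over all of them reaches up to 0.0316 CPM. CEPD2 had 0 reads as well, with the same limit. In the shallow 35S:NPC48 replicate 1 alone, 3 counts amount to 0.320 CPM.

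**Figure D1:**
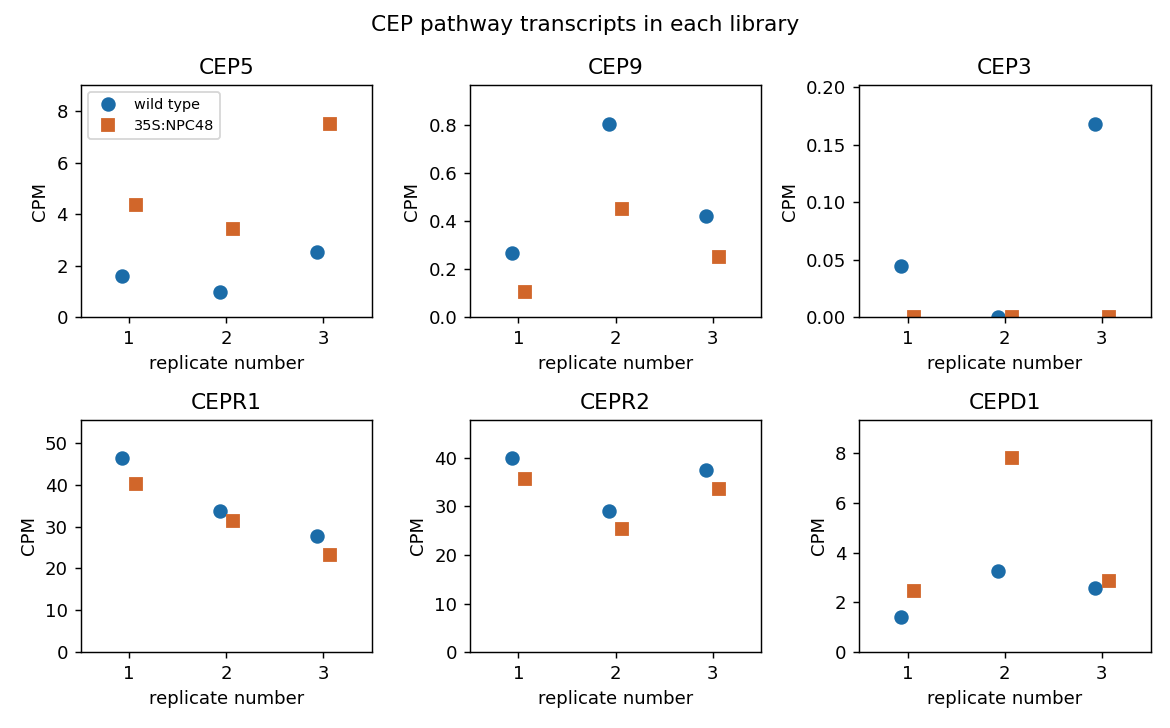
Level of 6 members in each library, in CPM on linear axes from 0, by replicate number, with wild type as circles and 35S:NPC48 as squares drawn side by side. CEP5 is higher in every 35S:NPC48 library than in any wild type library, the receptors CEPR1 and CEPR2 follow the replicate number more than the genotype, and CEPD1 peaks at 7.78 CPM in 35S:NPC48 replicate 2; CEP1 and CEPD2 are not drawn because all their counts are 0.

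Both receptor genes were well covered and nearly level between genotypes. For CEPR1 the wild type replicates 1, 2 and 3 gave 46.3, 33.8 and 27.8 CPM, and the 35S:NPC48 replicates 40.2, 31.3 and 23.2 CPM. The log2 difference between genotypes was -0.19 ± 0.26 (SE) and the ranges overlap. For CEPR2 they gave 39.8, 29.1 and 37.4 CPM (wild type) and 35.6, 25.2 and 33.6 CPM (35S:NPC48), with a log2 difference of -0.17 ± 0.19. The lower library was that of 35S:NPC48 in every replicate number for both genes, with ratios from 0.835 to 0.928 for CEPR1 and from 0.869 to 0.897 for CEPR2. Of all tested genes, 15.7% were lower in all 3 replicate numbers.

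CEPD1, the glutaredoxin that carries the signal back from the shoot, stood at 1.42, 3.27 and 2.57 CPM in the wild type replicates. In 35S:NPC48 it stood at 2.45, 7.78 and 2.85 CPM. The groups overlap, and one library, 35S:NPC48 replicate 2, was far above the rest. The log2 difference between genotypes was 0.87 ± 0.51 (SE) and 0.75 ± 0.27 with the block. Leaving out 35S:NPC48 replicate 2 brought it to 0.13. The ratio was 1.72, 2.38 and 1.11 in replicate numbers 1, 2 and 3.

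**Figure D2:**
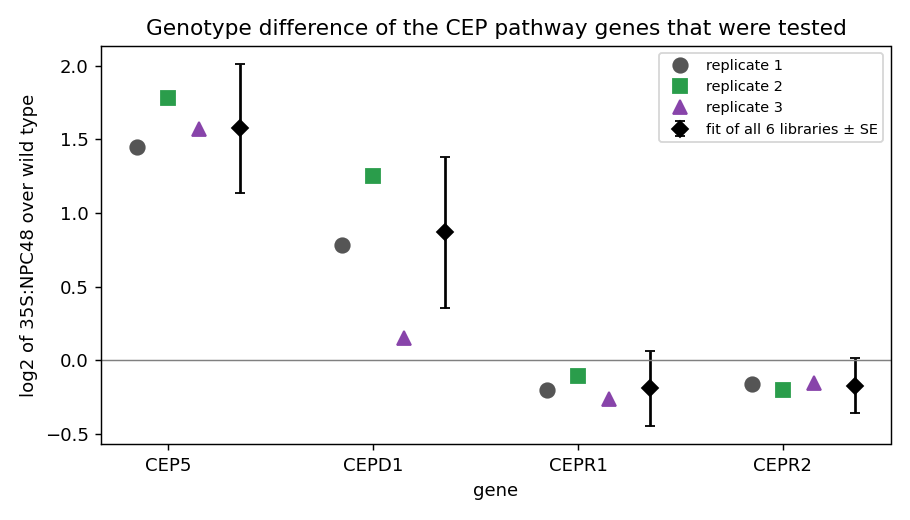
Log2 of 35S:NPC48 over wild type for the 4 members that were tested; circles, squares and triangles are the differences within replicates 1, 2 and 3, and diamonds with bars are the edgeR fit of all 6 libraries ± SE. The 3 values of CEP5 lie between 1.45 and 1.78, those of CEPD1 spread from 0.15 to 1.25, and those of the receptors lie just below 0.

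A comparison that played no part in choosing the 8 genes is the one between replicate numbers, each of which holds 1 library of each genotype. It was tested by edgeR's quasi-likelihood method in a model that also holds genotype, with Benjamini-Hochberg adjustment over all 19608 tested genes. Replicate 2 differed from replicate 1 in 19.9% of tested genes (10.8% higher and 9.2% lower) and from replicate 3 in 21.7% (11.3% higher and 10.4% lower), and from both in the same direction in 13.7% (7.31% higher and 6.35% lower). Between replicates 3 and 1, 0 genes passed in edgeR, where 2659 had an unadjusted p under 0.05 and DESeq2 without the filter called 210. Whether the genotypes differ in these contrasts was not tested, because 1 library per genotype and number leaves no degrees of freedom.

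Of the 4 tested members, CEPR2 was the one that passed in both contrasts of replicate 2, and it fell. It was lower in replicate 2 than in replicate 1 by a log2 difference of -0.47 ± 0.11 (SE; edgeR adjusted p = 0.0254) and than in replicate 3 by -0.39 ± 0.11 (adjusted p = 0.0451). In both genotypes replicate 2 was the lowest library, at 29.1 and 25.2 CPM, and both lay below all libraries of replicates 1 and 3, as did 21.1% of tested genes. The count of 1 in 4 is set against the 13.7% of all tested genes given above. The pass is narrow: without the filter on low counts the second contrast had an adjusted p of 0.0513, with DESeq2 and no filter it had 0.146, without a genotype term 0.0857, and the call was also lost without any single library of replicates 1 or 2.

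CEPR1 split the 3 replicate numbers in the same order in both genotypes. It was lower in replicate 2 than in replicate 1 by a log2 difference of -0.41 ± 0.12 (edgeR adjusted p = 0.0449), a direction called in 9.2% of tested genes. Against replicate 3 it was higher in replicate 2 by 0.36 ± 0.12, which did not pass (adjusted p = 0.0638, and 0.0323 without wild type replicate 3). The widest gap was that between replicates 3 and 1, -0.76 ± 0.12 (edgeR adjusted p = 0.155, and 0.00862 with DESeq2 without the filter). It passed in edgeR without wild type replicate 2 (0.0125), wild type replicate 3 (0.000562) or 35S:NPC48 replicate 3 (0.000624). The call of replicate 2 against 1 was lost with DESeq2 without the filter (adjusted p = 0.132), without a genotype term (0.0869) and without any single library of replicates 1 or 2 (0.200 to 0.431).

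CEP5 was lowest in replicate 2 of both genotypes and fell against replicate 3, by a log2 difference of -1.21 ± 0.26 (edgeR adjusted p = 0.0165), where 10.4% of tested genes were called lower. Against replicate 1 the difference was -0.50 ± 0.28 and did not pass (adjusted p = 0.254). The first call was lost without wild type replicate 2 (adjusted p = 0.112), without 35S:NPC48 replicate 2 (0.141) and without a genotype term (0.301). Because CEP peptides restrain lateral root formation, 6 lateral root genes were listed beside CEP5. Of these, LBD29, a transcription factor gene of that process, passed as lower in replicate 2 in both contrasts. LBD29 had 4.46 and 5.32 CPM in replicate 2 of wild type and 35S:NPC48 and 7.46 to 14.2 CPM in the other 4 libraries. Over all tested genes, 6.35% were called lower in both contrasts. GATA23 of the same list went the other way in the fit without the filter on low counts. Its log2 differences there were 1.19 ± 0.41 over replicate 1 and 0.13 ± 0.36 over replicate 3. Neither passed (edgeR adjusted p = 0.0788 and 0.853). LBD16, LBD18, PUCHI and LRP1 had negative differences in both contrasts. The summed level of the 6 genes was 20.4 and 24.8 CPM in replicate 2 and 31.4 to 42.6 CPM elsewhere, and none of the 6 was at 0. Its part in the CEP5 difference was not tested.

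CEPD1 rose in replicate 2 against replicate 1 by a log2 difference of 1.46 ± 0.34 (edgeR adjusted p = 0.0220), where 10.8% of tested genes were called higher. Against replicate 3 the difference was 0.91 ± 0.31 and did not pass (adjusted p = 0.0747). Both libraries of replicate 2 lay above all those of replicates 1 and 3, as in 21.5% of tested genes. The size of the gap differed between them, with 3.27 CPM against 1.42 and 2.57 in wild type and 7.78 CPM against 2.45 and 2.85 in 35S:NPC48. Without 35S:NPC48 replicate 2 the first contrast was 1.03 with an adjusted p of 0.284, and without wild type replicate 3 the second was 1.36 with 0.00355. The first call was also lost without wild type replicate 1 (0.0935), without 35S:NPC48 replicate 1 (0.0800) and without a genotype term (0.0653). CEP9 too was highest in replicate 2 within each genotype, but in the fit without the filter on low counts neither contrast passed (edgeR adjusted p = 0.198 and 0.443, where 17.1% and 18.6% of genes passed).

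CEPD1 belongs to the plant-specific CC-type glutaredoxins, and 19 further genes of that class were listed beside it, all of them annotated with the plant II glutaredoxin-like domain. One of these, AT2G30540, was nearly silent in 4 libraries and strongly expressed in the other 2. It had 22.3 CPM in replicate 2 of wild type and 32.9 CPM in replicate 2 of 35S:NPC48, against 0.223 and 0.295 CPM (wild type) and 0.107 and 0.400 CPM (35S:NPC48) for replicates 1 and 3. The reads behind these levels were 471 and 656 in replicate 2 and 1 to 8 in the other libraries.

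The filter on low counts asks for reads in 3 libraries, so AT2G30540 was tested only in the fit without it. There it rose in replicate 2 by a log2 difference of 7.05 ± 0.32 over replicate 1 and 6.28 ± 0.27 over replicate 3 (edgeR adjusted p = 5.15e-07 and 3.93e-07). In that fit 11.8% of 23918 genes passed in both contrasts, 6.45% as higher. Between genotypes its log2 difference was 0.58 ± 1.84, with overlapping groups. Over replicate 1 these fits give a fold of 2.76 for CEPD1 and 132 for AT2G30540.

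Of the 19 other CC-type glutaredoxins, 8 passed the filter. In replicate 2, 2 of these rose in both contrasts, as did 7.31% of all tested genes. AT4G15680 had 3.51 and 3.56 CPM in replicate 2 of wild type and 35S:NPC48 and 0 to 0.548 CPM elsewhere (log2 difference 4.93 ± 0.71 over replicate 1 and 3.35 ± 0.55 over replicate 3, edgeR adjusted p = 0.00311 and 0.00575). Its neighbour AT4G15690 had 28 and 26 reads in replicate 2 and 0 to 5 elsewhere, and the filter removed it. In the fit without the filter AT4G15690 rose by 3.91 ± 0.92 and 3.30 ± 0.79 (edgeR adjusted p = 0.0167 and 0.0169). There 6.45% of genes passed as higher in both contrasts. These genes lie in a tandem array of close relatives, and the authors' treatment of reads with several matches is not given in the sources used here, so the split between them is uncertain.

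ROXY2, known for its part in anther development, had 12.5 and 11.5 CPM in replicate 2 and 4.70 to 7.57 CPM elsewhere (0.89 ± 0.20 and 1.11 ± 0.19, edgeR adjusted p = 0.0184 and 0.00727). GRX480, a partner of TGA transcription factors, passed against replicate 1 only (1.32 ± 0.29, adjusted p = 0.0172, and 0.0723 against replicate 3). GRXS13, the most abundant gene of the list, had 59.0 and 80.0 CPM in replicate 2 and 85.2 to 131 CPM elsewhere. It fell against replicate 3 (-0.70 ± 0.15, edgeR adjusted p = 0.0165) and did not pass against replicate 1 (-0.37 ± 0.15, adjusted p = 0.133). AT3G62960 had 1 to 10 reads per library. Over the 8 tested genes the median log2 difference was 0.58 against replicate 1 and 0.04 against replicate 3, where all tested genes had medians of 0.00 and -0.02. With or without the block, 0 of the 8 were called between genotypes.

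**Figure D3:**
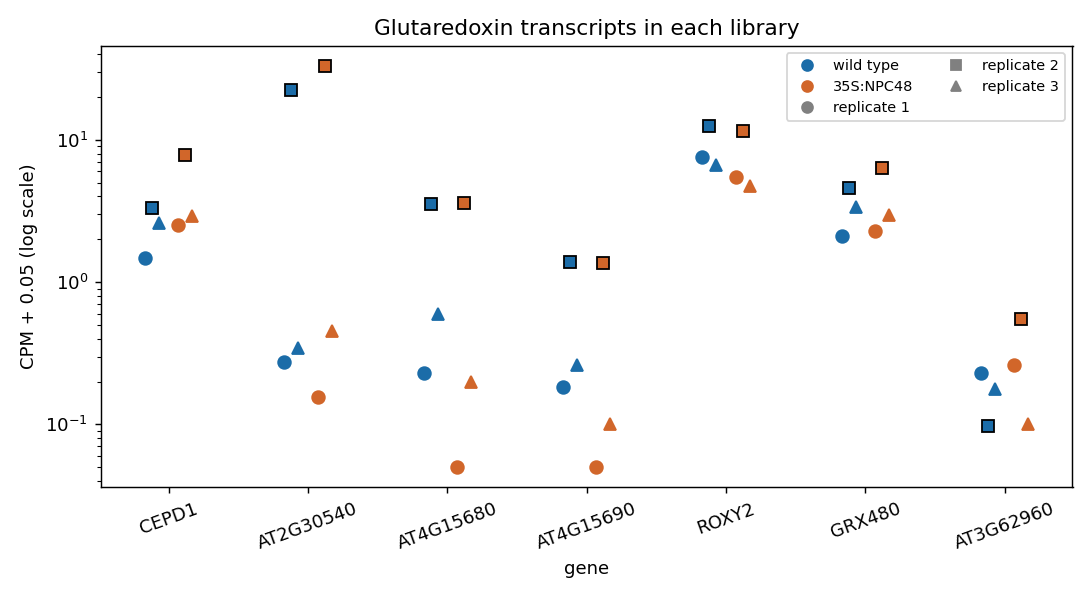
Level of CEPD1 and 6 other CC-type glutaredoxin genes in each library, as CPM + 0.05 on a log axis; blue is wild type, orange is 35S:NPC48, and circles, squares and triangles are replicates 1, 2 and 3. The replicate 2 squares of AT2G30540, at 22.3 and 32.9 CPM, stand far above its other 4 points, while CEPD1, ROXY2 and GRX480 rise less and AT3G62960 stays near the detection limit.

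NRT2.1, the high-affinity nitrate transporter gene that CEPD polypeptides raise, was not called in any contrast. Its wild type replicates gave 1.47, 2.65 and 3.37 CPM, and its 35S:NPC48 replicates 0.213, 2.26 and 0.450 CPM. In replicates 1 and 3 the 35S:NPC48 library was lower, with ratios of 0.145 and 0.134, while in replicate 2 the ratio was 0.851. The groups overlap through replicate 2. The log2 difference between genotypes was -1.26 ± 0.73 without the block and -1.54 ± 0.53 with it, and neither passed (edgeR adjusted p = 1.00 and 0.317). Between replicate 2 and replicates 1 and 3 the differences were 1.74 ± 0.67 and 0.73 ± 0.59 and did not pass (adjusted p = 0.107 and 0.411). NRT2.1 in 35S:NPC48 rests on 2, 45 and 9 reads.

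Other root genes at this step of the route were lower in replicate 2. NRT1.5, which loads nitrate into the xylem, had 480 and 589 CPM in replicate 2 of wild type and 35S:NPC48 and 1439 to 2305 CPM in the other libraries (log2 difference -1.99 ± 0.15 and -1.44 ± 0.14, edgeR adjusted p = 0.000139 and 0.000667). TGA1 and TGA4 encode transcription factors known to bind CEPD-type glutaredoxins. TGA4 fell in both contrasts, by 0.95 and 1.05 on the log2 scale (edgeR adjusted p = 0.00221 and 0.00150), and TGA1 fell by 0.59 and 0.64 (adjusted p = 0.0180 and 0.0131).

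NRT3.1, the partner protein of NRT2.1, fell against replicate 3 only, by 0.69 (edgeR adjusted p = 0.0326, and 0.102 against replicate 1). Of the 5 tested genes of this list, 0 rose and 3 fell in both contrasts, with medians of -0.59 and -0.69. Over all tested genes, 7.31% rose and 6.35% fell in both. The phosphatase gene AT4G32950 had at most 1 read per library. Between genotypes 0 of the 5 were called, with or without the block.

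**Figure D4:**
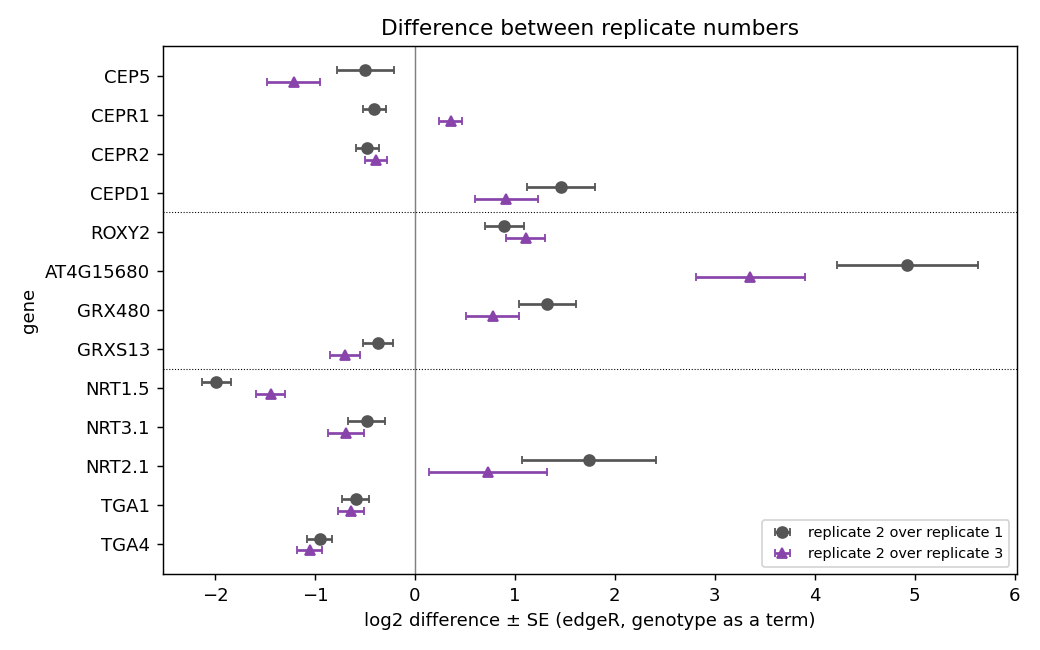
Log2 difference ± SE between replicate 2 and replicates 1 (circles) and 3 (triangles) from the edgeR fit with genotype as a term, for the 4 tested members (top), 4 further CC-type glutaredoxins (middle) and 5 genes on which CEPD polypeptides act or with which they pair (bottom). CEPD1 and most glutaredoxins shown lie to the right of 0, with AT4G15680 at 4.93 and 3.35, while GRXS13, NRT1.5, NRT3.1, TGA1 and TGA4 lie to the left; AT2G30540 is not drawn because the filter removed it.

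Genes that report on nitrogen status were listed too. Of 7 tested genes, 0 rose and 3 fell in both contrasts of replicate 2, where 7.31% of all tested genes rose and 6.35% fell. The 3 were the nitrate transporter and sensor gene NRT1.1, the nitrite reductase gene NIR1 and the nitrate reductase gene NIA1. NRT1.1 had 720 and 561 CPM in replicate 2 of wild type and 35S:NPC48 and 1432 to 2220 CPM elsewhere. NRT2.2 and NRT2.5, of which NRT2.5 is known to respond to long nitrogen starvation, had 0 reads in all 6 libraries. NRT2.4 had 0 to 6 reads per library. Between genotypes 0 of the 7 were called, with or without the block.

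The receptor genes were set beside 17 tested receptor kinases of related families, such as PXY, HSL1 and BAM1. Their median log2 difference between genotypes was -0.15, close to the values of CEPR1 and CEPR2, against 0.01 over all tested genes, and 0 were called. None of the 17 passed in both contrasts of replicate 2. CLV1 fell against replicate 1 (-0.83 ± 0.12, edgeR adjusted p = 0.00356), while PXL2 and BAM2 rose against replicate 3 (0.76 and 0.59).

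CEPR1 is active in vascular tissue, and 7 phloem markers, none at 0, were summed beside it. The sums over replicates 1, 2 and 3 were 219, 195 and 177 CPM (wild type) and 255, 197 and 161 CPM (35S:NPC48). The sums follow the order that CEPR1 shows over the replicate numbers, but most single markers do not. In the fit without the filter on low counts, SUC2 was 0.14 (log2) above replicate 1 in replicate 2. It was 0.92 ± 0.15 above replicate 3 (edgeR adjusted p = 0.00296). NAKR1, PP2-A1, SWEET11 and FTIP1 were lower in replicate 2 in both contrasts. AHA3 and APL lay at -0.01 and 0.00 against replicate 1 and at 0.44 and 0.15 against replicate 3. The part of phloem in the CEPR1 differences was not tested. In replicate 2 against 1, the contrast in which CEPR1 was called, 4 of the 7 were called lower, as were 9.2% of all tested genes. Against replicate 3, 1 was called lower and 1 higher. Of the 7, SWEET11, a sugar transporter gene, was called lower in replicate 2 in both contrasts, as were 6.35% of all tested genes. Its level was 1.04 and 3.06 CPM there and 5.35 to 20.1 CPM in the other libraries.

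CEPD1 is known as a transcript of the shoot phloem, so shoot markers were set beside it. LHCB1.3, a leaf marker, was named from the 10 listed after its values were seen. It had 21.5 CPM in wild type replicate 3 and 27.8 CPM in 35S:NPC48 replicate 1. In the other 4 libraries it had 0.356 to 0.903 CPM. CEPD1 stood at 2.57 and 2.45 CPM in the first 2 of these libraries, and the other 4 hold both its lowest level (1.42 CPM, wild type replicate 1) and its highest (7.78 CPM, 35S:NPC48 replicate 2). The markers differed in the fit without the filter on low counts. Replicate 2 over replicates 1 and 3 gave log2 differences of -3.86 ± 1.87 and -3.84 ± 1.86 for LHCB1.3. For RBCS3B they were -4.94 ± 2.56 and -5.33 ± 2.35. LHCB4.1 had -1.01 ± 0.20 and -0.61 ± 0.20, and PSBR had 0.04 ± 0.24 and -0.30 ± 0.24. The part of shoot material in the CEPD1 differences was not tested. None of the 10 shoot markers summed to 0 counts over the libraries, and RBCS3B had 0 reads in 2 of them. A list of 6 root hair genes summed to 546 and 479 CPM in replicate 2 and 210 to 351 CPM elsewhere. In replicate 2 against 1, the contrast in which CEPD1 passed, 5 of the 6 were called higher, as were 10.8% of all tested genes. In both contrasts 3 of the 6 were called higher, as were 7.31% of all tested genes. RHS19, a root hair peroxidase gene, had 213 and 168 CPM in replicate 2. In the fit without the filter it was the most changed of the list (log2 difference 2.01 ± 0.13 and 1.19 ± 0.12). RSL4 lay below 0 in both contrasts there (-0.05 ± 0.16 and -0.25 ± 0.16). The part of root hairs in the CEPD1 and CEP5 differences was not tested.

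The other peptide genes of the family gave no calls. A list of 6 further IDs was drawn up as candidate CEP genes, which the reference does not name as such. Of these, 2 had 0 reads throughout (AT1G59835 and AT1G16950) and 3 were tested. AT2G35612 had log2 differences between genotypes of 0.00 ± 0.73, AT1G29290 of 0.43 ± 0.41 and AT2G40530 of 0.31 ± 0.25. None of the 3 was called between genotypes or between replicate numbers, the lowest edgeR adjusted p being 0.112 for AT2G35612 in replicate 2 against 1.

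CEP5 lies on chromosome 5 next to AT5G66816, one of the 6, which had 3, 5 and 6 reads in wild type and 0, 7 and 7 in 35S:NPC48, too few to test. The nearest tested genes on either side of CEP5, AT5G66810 and AT5G66820, had log2 differences between genotypes of 0.02 ± 0.12 and 0.06 ± 0.17. One gene further out, AT5G66800 had 0.45 ± 0.26. AT5G66830, an F-box protein gene, had 3.03 to 3.37 CPM in the wild type libraries and 1.17 to 1.90 CPM in those of 35S:NPC48, a log2 difference of -1.07 ± 0.28 that did not pass (edgeR adjusted p = 0.533, and 0.135 with the block).

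For each tested member the pattern over the 6 libraries was set against the 15514 genes averaging 5 CPM or more, by Pearson's correlation of log2 CPM. Closest to CEP5 were AT1G74440, annotated as a membrane protein of the endoplasmic reticulum (r = 0.998), and AT4G17310, an uncharacterized protein gene (r = 0.998). AT1G74440 ranged from 3.89 to 5.73 CPM over the wild type libraries and from 6.32 to 8.76 CPM over those of 35S:NPC48. Closest to CEPR1 were AT3G13180 (r = 0.987) and NHL1 (r = 0.985). Closest to CEPR2 were AT1G61370, a lectin-type receptor kinase gene, and AT4G31440 (r = 0.996 each). Closest to CEPD1 were the noncoding RNA gene AT3G12965 (r = 0.996), with 66.1 CPM in 35S:NPC48 replicate 2, and AT5G42110 (r = 0.995). Between 149 and 510 genes reached an r of 0.9 for each member, and the points share library, depth and the split of replicate 2, so these values are a description.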

How the data were processed

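Each library's file, as the authors deposited it, holds unnormalized whole-number counts of reads for every gene. The tools named in the submitters' processing notes are STAR 2.5.2b, Trimmomatic 0.36, Subread 1.6.5 and featureCounts, and the build is TAIR10. Strand setting, annotation release and the handling of multi-mapping reads are not stated there, so reads of overlapping or antisense genes cannot be told apart. Gene names and order came from the TAIR10.1 reference, which matched 28494 of 29613 IDs, and no coordinates are given. Promoter and protein sequences were not used here.

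The tests used edgeR 4.0.16 and DESeq2 1.42.0 in R 4.3.3. filterByExpr (minimum count 10, total 15) kept 19608 genes and libraries were scaled by TMM. CPM uses these effective library sizes. Genotypes were compared by the quasi-likelihood F test with genotype alone, and replicate numbers with genotype added, at a Benjamini-Hochberg adjusted p under 0.05. The fits were tested on simulated data. Standard errors come from the F statistic.

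Equal replicate numbers in the labels were checked for pairing. Deviations from the group means correlated at 0.53, 0.83 and 0.37 for numbers 1, 2 and 3, so the fit with the block is given where it matters, although numbers 1 and 3 were hardly told apart (0.39 and 0.34 when crossed). Libraries of a group differed by far more than sampling noise (the chi-square per degree of freedom was at least 16.3).

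The members, lists and contrasts were chosen with earlier results of these data known. Of the listed IDs, 3 were dropped: 1 of a transfer RNA, 1 outside the files and 1 of another gene than intended. Genes named are the members, all listed partners and candidate CEP genes, up to 4 called genes per list, 2 tested neighbours on each side of CEP5 and the 2 genes most like each member. Members of lists that were not called in both contrasts of replicate 2, AT2G30540 and other glutaredoxins outside the test, RBCS3B and LHCB1.3 were named after their values were seen. Alternatives were RLE scaling, no filter, DESeq2 without the filter, other model terms and leaving out libraries.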

Additional observations from a re-analysis of the deposited data

How the results depend on the processing

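The direction of every log2 difference given for CEP5, CEPR2 and CEPD1 was kept under all alternatives run, as was that of CEPR1 between replicate numbers. Between genotypes CEPR1 ranged from -0.40 to 0.03, CEP5 from 1.17 to 1.97 and CEPD1 from 0.13 to 1.15. The count of genes called between genotypes, 2, became 153 with DESeq2 run without the filter, which changes tool and filter together, and 237 with the replicate block. It became 46 without replicate 2 of both genotypes and, with the replicate block as well, which was chosen after seeing the data, 118. It ranged from 0 to 2 when single libraries were left out. The SE of the CEP5 difference was 0.22 with the block and 0.31 with the block and without replicate 2. The counts between replicates ranged, with single libraries left out, from 1207 to 7967 for 2 against 1, from 1115 to 6604 for 2 against 3 and from 0 to 2145 for 3 against 1, where DESeq2 without the filter gave 210. The 1 member called in both contrasts of replicate 2 became 0 without the filter, in edgeR as in DESeq2, and 0 without a genotype term, and 0 to 2 when single libraries were left out. In the contrasts between replicate numbers, leaving out a library of a compared number leaves 1 sample in that arm, assumed to vary like the others. Depth limits CEP1, CEP3, CEP9 and CEPD2.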
